A study of Triticum aestivum with 39 samples.

Results

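The tubulin genes of wheat were followed through 13 tissues with 4 probesets of the Affymetrix Wheat GeneChip, 3 for beta tubulin (tubb2, tubb1 and Tubb5, gene IDs 543258, 543257 and 543261) and 1 for alpha tubulin (TUBA, gene ID 543387). They were chosen by the platform annotation, which pairs them with genes named TUB or TUBA. They are 4 of the 61290 probesets on the array and of the 39564 that were retained for the tests. All 4 genes were found by gene ID in the RefSeq gene table of Chinese Spring, the 3 beta tubulins with TUB among their synonyms and TUBA under its own symbol. Another 6 tubulin probesets are of the kinds that the study set aside, for cross-hybridization or an uncertain orientation, and are described after the main results.

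RNA had come from untreated plants of 1 genotype, the cultivar Chinese Spring, in 3 separately collected replicates per tissue, each pooled from 10 seeds or plants. Germinating seeds gave the coleoptile, the root and the embryo, and seedlings of 10 cm gave the root, the crown and the leaf. Floral tissues were the immature inflorescence of 2 to 3 cm and, 2 days before anthesis, the floral bracts, pistil and anthers. Grain tissues were the caryopsis at 3 to 5 days after pollination (DAP) and the embryo and endosperm at 22 DAP. The embryo of the germinating seed was taken to be the tissue that the study calls mesocotyl, since the other 12 matched by name.

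Microtubules are filaments built from pairs of alpha and beta tubulin. In plant cells they make up the spindle and the phragmoplast of dividing cells, and below the plasma membrane they form the cortical array that guides the laying down of cellulose in growing walls. Plants encode both proteins in families of closely similar genes, and in Arabidopsis and maize some members are known to be used mainly in roots or in pollen. A GeneChip probeset in general does not separate the 3 homoeologs of hexaploid wheat, so each value below may sum several near copies. The tables given for the array hold no sequence of these genes, and none is shown.

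The signals were scaled by the submitters to nearly the same trimmed mean on each array, between 500.2 and 500.4, and replicates correlated at 0.925 to 0.968 across retained probesets. Of 35 marker probesets, 25 were highest in the tissue they mark, among them PRK and OEE2 in leaf, GAG56D in endosperm, Em in the 22 DAP embryo and raftin1a in anthers. The 10 others were probesets for leaf markers, 9 for rbcl and 1 for petC. The hybridization controls, which are added in equal amounts, were 1.17 log2 units above their mean over all arrays in endosperm, 0.60 above it in leaf and 0.52 above it in anthers. In the other 10 tissues they lay between -0.42 and 0.02. Scaling to these controls therefore lowers endosperm, leaf and anthers, and where it turns a direction printed below or ends a call, the value on the control scale is given as well. Differences of tubulins that were not called and lie near 0 can take either sign under another scaling. The ratio of 3' to 5' signal of the actin control was highest in floral bracts (2.04 log2 units), pistil (1.55) and anthers (0.75), against -0.99 to 0.47 in the other tissues. The other controls gave other orders. That of gapdh was lowest in anthers (-2.86) and highest in leaf (-0.97), with bracts at -1.11. That of ef1a was highest in anthers (1.26), with bracts at -0.19. The part of these ratios in the values below was not tested. The spiked polyadenylated control dap stood at 4.33 to 4.93 on all 9 arrays from seedling root, pistil or bracts, against 8.71 to 11.6 on the remaining 30, so these 3 tissues and whatever sets their arrays apart cannot be told apart.

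All 4 tubulin probesets varied over the 13 tissues. The limma F test, adjusted over all retained probesets, gave 6.03e-15 for tubb2, 1.35e-18 for tubb1, 7.45e-16 for Tubb5 and 6.91e-13 for TUBA, in a dataset in which 70.8% of retained probesets varied. On the log2(signal + 16) scale, on which all differences and folds here are given, the tissue means of tubb2 spanned 2.92 units (7.57-fold), those of tubb1 3.39 (10.5-fold), those of Tubb5 3.55 (11.7-fold) and those of TUBA 6.14 (70.4-fold). Of all retained probesets, 94.6% had a smaller span than TUBA, against 73.1%, 79.3% and 81.1% for tubb2, tubb1 and Tubb5. The spread between replicates of a tissue was 0.13 units for tubb2 and tubb1, 0.20 for Tubb5 and 0.59 for TUBA (pooled SD, 3 per tissue), so TUBA was both the most variable over tissues and the least precise of the 4.

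**Figure D1:**
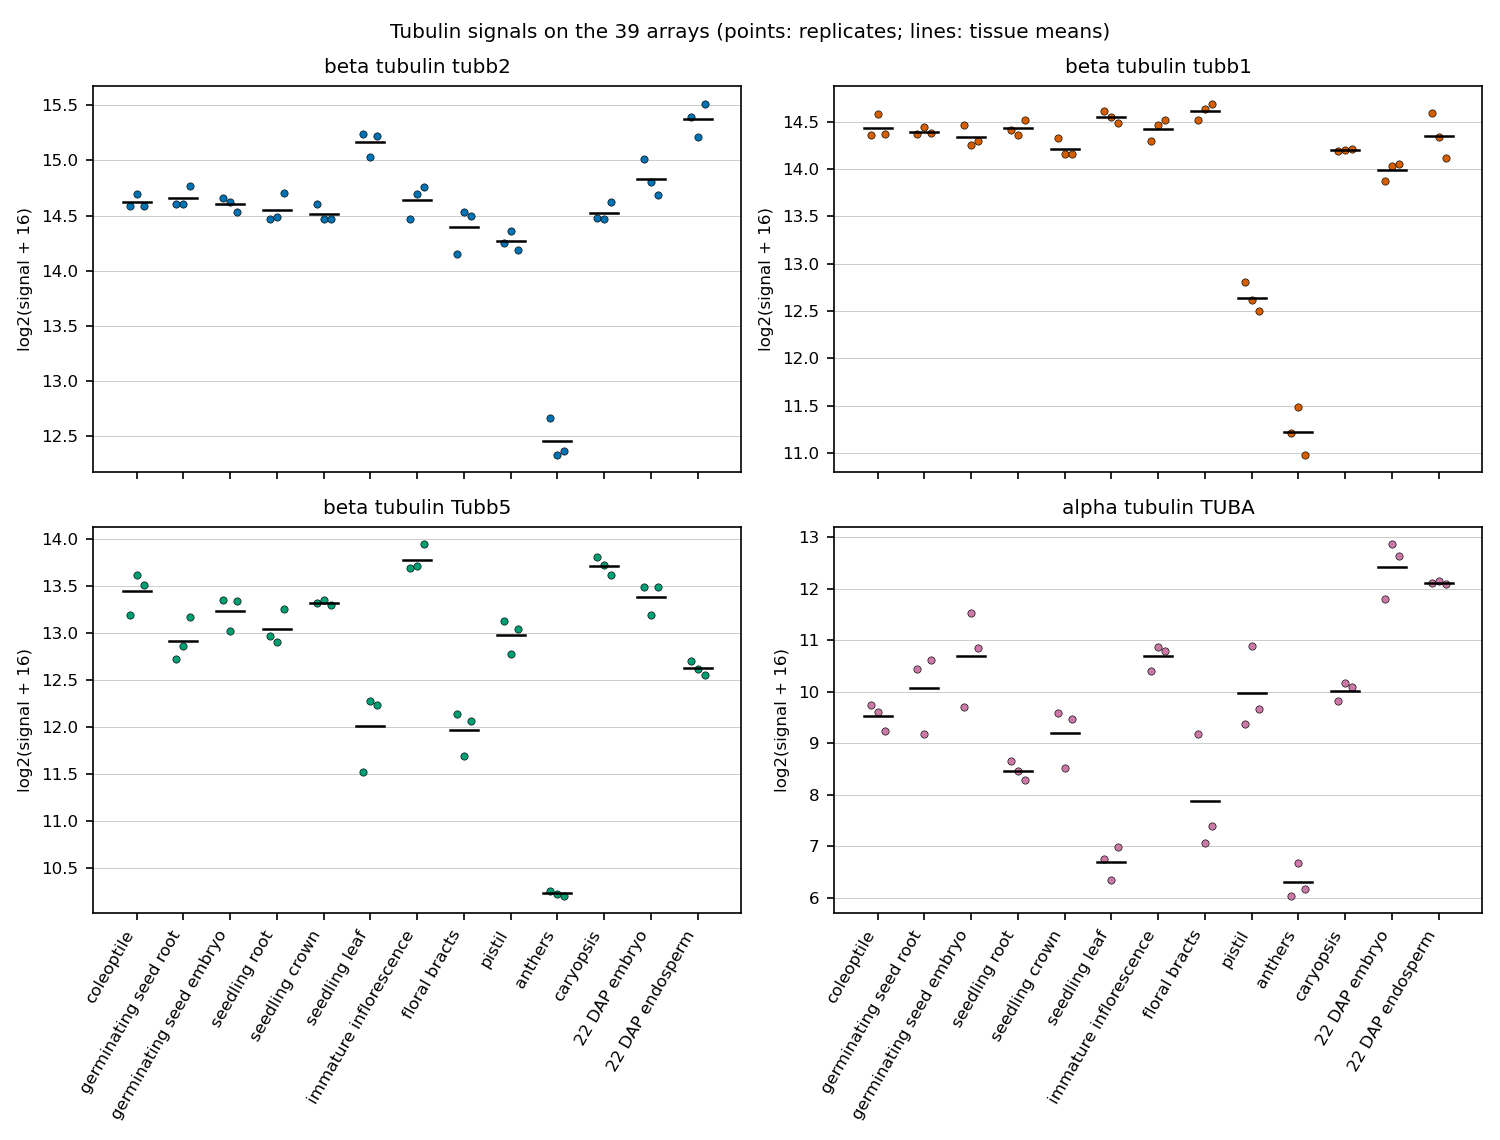
Level of each tubulin probeset, as log2(signal + 16), on the 39 arrays, with the 13 tissues along the x axis, points for the 3 replicates and lines for tissue means (each panel has its own y axis). All 4 panels have their lowest mean in anthers, and the TUBA replicates lie farther apart than those of the beta tubulins.

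Anthers had the lowest mean of the 13 tissues for all 4 genes, and this held under scaling to equal medians, to the hybridization controls and by quantile normalization. The 3 anther arrays gave tubb2 signals of 6467, 5126 and 5258, while the lowest signal on any of the other 36 arrays was 18221, in floral bracts. The anther signals of tubb1 were 2364, 2843 and 2004, and pistil, the next tissue, gave 7153, 6260 and 5760. No anther replicate of either gene reached the lowest replicate of another tissue. Tubb5 behaved likewise, with signals of 1209, 1180 and 1164 in anthers and of 2924 or more elsewhere, where the lowest array was a seedling leaf.

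The 3 beta tubulins were lower in anthers than in each of the other 12 tissues in the limma fit. The smallest of the 12 differences was -1.81 for tubb2 (against pistil, adjusted p = 3.88e-12), -1.41 for tubb1 (against pistil, adjusted p = 8.9e-10) and -1.74 for Tubb5 (against floral bracts, adjusted p = 2.15e-09). TUBA was lower in anthers than in 11 of the 12. Its exception was seedling leaf, where the difference was -0.39 (limma, adjusted p = 0.551) and the signals overlapped, with 49.8, 86.3 and 56.3 in anthers and 91.2, 65.1 and 111 in leaf. TUBA was then brighter than 37.9% to 50.9% of all probesets on the anther arrays, near the middle of the array, and no detection call was used. The middle is itself dim, since the median signal averaged 82.3 on the anther arrays and 87.4 on the leaf arrays. Whether TUBA stood above background in anthers or leaf was not tested, so its folds from these tissues are uncertain. In bulk tissue, fewer cells that express a gene and less RNA per cell cannot be told apart.

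Between neighbours in the order of tissue means, few steps exceeded the replicate error. The order of tubb2 ran from 22 DAP endosperm (15.37 ± 0.15, log2, SD, n = 3) and seedling leaf (15.16 ± 0.12) through 22 DAP embryo (14.83 ± 0.17), germinating seed root, inflorescence, coleoptile, germinating seed embryo, seedling root, caryopsis, crown, bracts and pistil (14.27 ± 0.09) to anthers (12.45 ± 0.18), and only the last of the 12 steps, from pistil to anthers, passed the limma test. Without anthers, the remaining 12 means spanned 1.11 units (2.15-fold), and only 18.7% of retained probesets spanned less over these tissues. The top of the order depended on the scaling, since endosperm was first of 13 as deposited and by equal medians, but rank 12 when scaled to the hybridization controls and rank 11 by quantile normalization, with germinating seed root first in both.

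The order of tubb1 had 2 steps that passed the test, from 22 DAP embryo to pistil (1.35, adjusted p = 3.56e-09, limma) and from pistil to anthers (1.41, adjusted p = 8.9e-10). Above these steps 11 tissues lay between 14.62 ± 0.09 in floral bracts and 13.99 ± 0.10 in 22 DAP embryo, and no neighbours among them differed beyond their spread. Below them stood pistil at 12.64 ± 0.16 and anthers at 11.23 ± 0.25 (log2, SD, n = 3). As deposited, the low values of tubb1 thus lay in the 2 reproductive organs taken just before anthesis. On the scale of the hybridization controls endosperm (13.19) also stood low, between leaf (13.95) and pistil (12.63). Pistil and anthers kept ranks 12 and 13 for tubb1 under every scaling. The top of its order was bracts under every scaling but equal medians, where it was coleoptile, and equal medians likewise put caryopsis in place of inflorescence at the top for Tubb5.

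Tubb5 had its highest means in immature inflorescence (13.78 ± 0.14), caryopsis (13.72 ± 0.10) and coleoptile (13.44 ± 0.22), which did not differ between neighbours. No step passed the test down through 22 DAP embryo, crown, germinating seed embryo, seedling root, pistil, germinating seed root and 22 DAP endosperm (12.62 ± 0.07). Endosperm was 0.61 above seedling leaf (adjusted p = 0.00676, limma), leaf (12.01 ± 0.42) and bracts (11.96 ± 0.24) did not differ beyond their spread, and bracts were 1.74 above anthers (10.23 ± 0.03). As deposited, the low end of Tubb5 thus held leaf, bracts and anthers. On the scale of the hybridization controls endosperm (11.46) stood beside leaf (11.41) and below bracts (12.27), so the step from endosperm to leaf rests on the scaling. For tubb1 leaf ranked 2 of 13 as deposited, but 8 with equal medians or quantile normalization and 10 on the control scale.

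TUBA stood highest in 22 DAP embryo (12.43 ± 0.56) and 22 DAP endosperm (12.12 ± 0.04), and endosperm was 1.43 above the next tissue, the germinating seed embryo (10.69 ± 0.92; limma, adjusted p = 0.0134). On the scale of the hybridization controls this step was gone, with endosperm at 10.96 and germinating seed embryo at 11.00. As deposited, no other of its 12 steps passed the test, and the step from bracts (7.88 ± 1.13) to seedling leaf (6.69 ± 0.32) missed it at an adjusted p of 0.0502. The order between runs inflorescence, germinating seed root, caryopsis, pistil, coleoptile, crown and seedling root. Across all 78 tissue pairs TUBA was called different in 53, Tubb5 in 29, tubb1 in 23 and tubb2 in 13, where a call needs a limma adjusted p under 0.05 and a difference of at least 1 log2 unit. Over all retained probesets and pairs 23.1% were called.

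**Figure D2:**
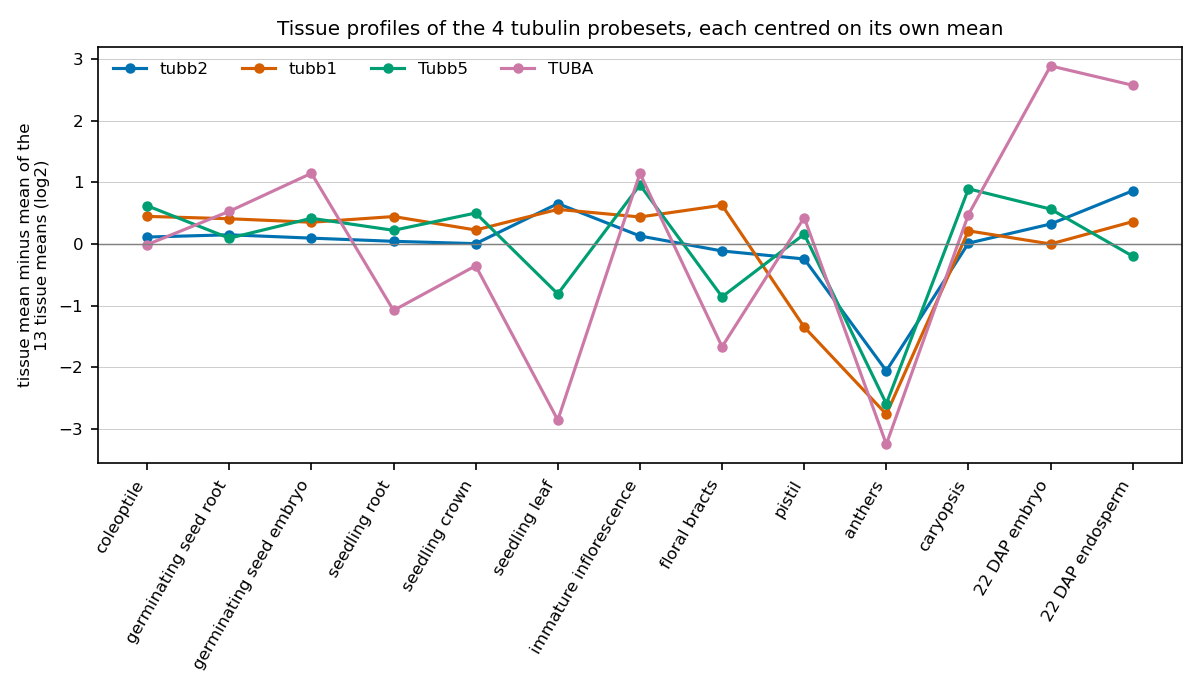
Tissue mean minus the mean of the 13 tissue means (log2 units, y axis) of each tubulin probeset over the 13 tissues (x axis), with lines that only join the points of 1 probeset. All 4 dip in anthers, tubb1 is also low in pistil, and Tubb5 and TUBA are low in seedling leaf and floral bracts, where tubb1 is at its highest as deposited (leaf ranks 8 to 10 for tubb1 under the other scalings).

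The development of the anther was read as the difference from the immature inflorescence. All 4 tubulins were called lower in anthers, in a comparison in which 15.3% of retained probesets were called lower. In anthers tubb1 gave 2364, 2843 and 2004, against 20116, 22560 and 23438 in inflorescence, a difference of -3.20 ± 0.14 (SE; 9.19-fold lower, limma adjusted p = 5.32e-18). Tubb5 gave 1209, 1180 and 1164 in anthers and 13174, 13360 and 15732 in inflorescence, which is -3.55 ± 0.18 (11.7-fold lower, adjusted p = 1.58e-16). No replicates of the 2 tissues overlapped for any of the 4 genes, as for 22.7% of retained probesets on the lower side. Over the 10 comparisons of 2 tissues, between 10.3% and 29.1% of retained probesets did not overlap in a given direction. For tubb2 the anther signals above stood against 22582, 26457 and 27719 in inflorescence (-2.19 ± 0.14, 4.55-fold lower, adjusted p = 3.57e-14 by limma). For TUBA they stood against 1342, 1858 and 1757 (-4.39 ± 0.46, 21.0-fold lower, adjusted p = 1.9e-09). The median over all retained probesets was 0.12 in this comparison, and scaling to the hybridization controls made all 4 differences larger, from -2.97 for tubb2 to -5.04 for TUBA.

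In the floral bracts, the leaf-like organs that enclose the flower, 2 of 4 were lower than in the inflorescence, beside 11.2% of retained probesets. Tubb5 had 4505, 3283 and 4265 in bracts and 13174, 13360 and 15732 in inflorescence (-1.81 ± 0.18, 3.52-fold lower, adjusted p = 1.18e-09, limma). TUBA had 561, 118 and 153 in bracts and 1342, 1858 and 1757 in inflorescence (-2.81 ± 0.46, 7.02-fold lower, adjusted p = 8.89e-06). The groups were separate for both, though bracts replicate 1 was well above the other bracts arrays for TUBA, and without it the difference was -3.46. The other beta tubulins did not pass, at -0.24 (95% interval -0.53 to 0.04) for tubb2 and 0.19 (-0.10 to 0.48) for tubb1, whose bracts arrays all lay above those of the inflorescence.

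The seedling leaf gave the same split, with Tubb5 and TUBA called lower and tubb2 and tubb1 not called, both against the coleoptile and against the crown. The share of retained probesets called lower was 10.9% against coleoptile and 11.3% against crown. Tubb5 had signals of 2924, 4934 and 4813 in leaf, against 9348, 12544 and 11685 in coleoptile (-1.43 ± 0.18, adjusted p = 1.07e-07, limma) and 10232, 10397 and 10077 in crown (-1.31 ± 0.18, adjusted p = 6.67e-07). TUBA had 91.2, 65.1 and 111 in leaf, against 846, 766 and 591 in coleoptile (-2.85 ± 0.46, adjusted p = 6.9e-06) and 750, 351 and 697 in crown (-2.50 ± 0.46, adjusted p = 5.68e-05). In neither gene did a leaf array reach the lowest array of the other tissue. These 2 comparisons share the leaf arrays.

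The tubb2 signals were higher in leaf, at 38680, 33420 and 38233, than in coleoptile, at 24547, 26519 and 24534, without overlap. The difference of 0.54 ± 0.14 (adjusted p = 0.00252, limma) was below the minimum of 1 that a call needs, as was that from crown (0.65 ± 0.14, adjusted p = 0.000451). Scaling to the hybridization controls turned both, to -0.38 and -0.29, so no direction is given for tubb2 in leaf. The differences of tubb1 were 0.11 (95% interval -0.17 to 0.40) from coleoptile and 0.33 (0.05 to 0.62) from crown, and turned as well, to -0.81 and -0.60.

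**Figure D3:**
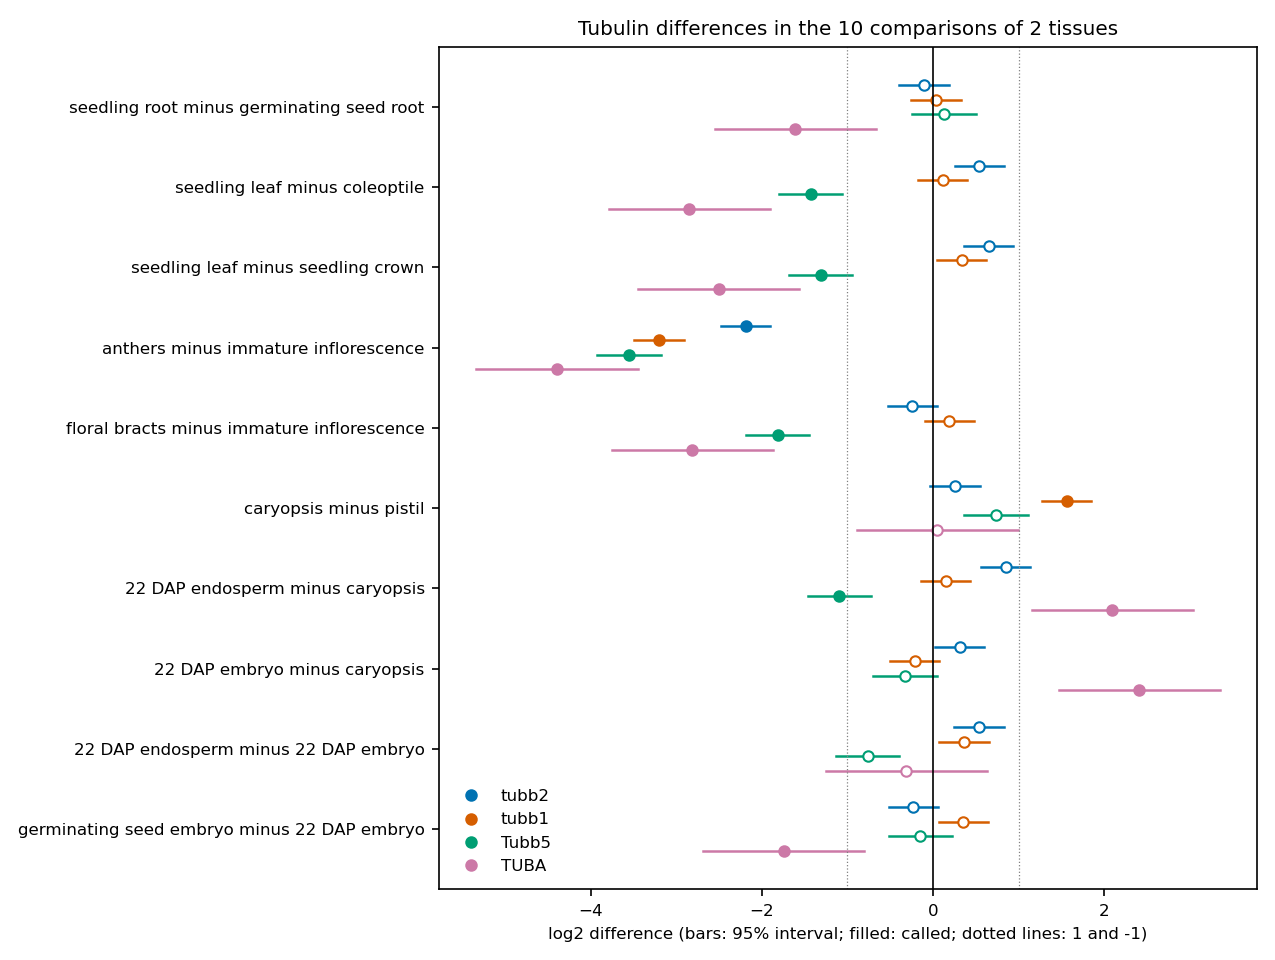
Log2 difference (x axis) of the 4 tubulin probesets in the 10 comparisons of 2 tissues (y axis, first-named tissue minus second-named), with bars for 95% intervals and filled symbols for calls. Anthers against inflorescence is the only row with 4 filled symbols, at -2.19 to -4.39, and the TUBA intervals are the widest throughout.

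In roots the beta tubulins hardly differed by stage, while TUBA was called lower in the seedling, 1 of 4 beside 2.2% of retained probesets. Its signals were 385, 339 and 296 in seedling root, against 1375, 562 and 1550 in germinating seed root, with no overlap (-1.61 ± 0.46, 3.05-fold lower, adjusted p = 0.0195, limma). The call is fragile. Leaving out germinating seed root replicate 1 (adjusted p = 0.0906) or 3 (0.115), or seedling root replicate 2 (0.0567) or 3 (0.0753), ended it, as did a limma fit of these 2 tissues alone (0.0719), and over its 20 alternatives the adjusted p ran between 0.00601 and 0.407. The 3 beta tubulins lay between -0.11 and 0.13, with 95% intervals within -0.39 and 0.50.

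From pistil to young caryopsis, the step across pollination, tubb1 was called higher, 1 of 4 beside 6.89% of retained probesets. The caryopsis gave 18754, 18785 and 18901 and the pistil 7153, 6260 and 5760, a difference of 1.56 ± 0.14 (2.95-fold, adjusted p = 3.94e-10, limma). Tubb5 was also higher in every caryopsis array, at 14329, 13541 and 12510 in caryopsis and 8907, 6995 and 8417 in pistil, but its 0.74 ± 0.18 (adjusted p = 0.00216) was under the minimum of 1, which it passed at 1.02 when arrays were scaled to equal medians. The median of all retained probesets was -0.14 here. TUBA differed by 0.05 with a wide 95% interval of -0.89 to 0.99, and its pistil signals of 650, 1875 and 793 overlapped those of the caryopsis. For tubb2 the interval was -0.03 to 0.54.

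In the maturing grain TUBA was called higher in both parts, as 1 of 4 in embryo and 1 of 4 in endosperm. It had 3562, 7453 and 6333 in 22 DAP embryo, against 886, 1131 and 1075 in caryopsis (2.41 ± 0.46, 5.32-fold higher, adjusted p = 0.000114, limma), where 10.3% of retained probesets were called higher. It had 4406, 4561 and 4350 in 22 DAP endosperm, against the same caryopsis arrays (means of 12.12 in endosperm and 10.02 in caryopsis, 4.28-fold higher, SE 0.46, adjusted p = 0.000524), where 17% were called higher. No replicates overlapped in either comparison. The endosperm difference rests on the scaling, for it was 0.79 (adjusted p = 0.215) when arrays were scaled to the hybridization controls, and its adjusted p over 21 alternatives ran between 0.000125 and 0.215. That of the embryo was 2.24 under the same scaling and stayed called. The other TUBA probeset, described below, differed there by 0.13 as deposited (limma adjusted p = 0.51) and was not called.

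Tubb5 was called lower in endosperm than in caryopsis, with 6632, 6258 and 5997 in endosperm and 14329, 13541 and 12510 in caryopsis (-1.09 ± 0.18, 2.13-fold lower, adjusted p = 1.34e-05, limma), where 9.56% of retained probesets were called lower. The difference was close to the minimum of 1 and grew to -2.40 on the scale of the hybridization controls. In 22 DAP embryo Tubb5 differed from caryopsis by -0.33 (95% interval -0.70 to 0.04). The higher tubb2 signal in endosperm, at 42961, 37843 and 46831 in endosperm and 22753, 22661 and 25228 in caryopsis, came to 0.85 ± 0.14 (adjusted p = 1.34e-05) as deposited and to -0.46 on the control scale, and for tubb1 the values were 0.15 and -1.16. Between endosperm and embryo at 22 DAP none of 4 was called by limma, beside 28.8% of retained probesets in either direction. At an unadjusted p under 0.05, 3 of 4 differed, tubb2 by 0.54, tubb1 by 0.36 and Tubb5 by -0.76, and all 3 also had an adjusted p under 0.05. The share of retained probesets that pass without the minimum difference was not counted, so this count has no share to be set beside. The difference of tubb2 turned to -0.60 and that of tubb1 to -0.78 on the scale of the hybridization controls, so no direction is given for them, while Tubb5 kept its direction at -1.90. TUBA, at -0.31 as deposited, was called lower in endosperm on that scale (-1.45, adjusted p = 0.0141 in a range of 0.0141 to 0.913 over 21 alternatives).

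The embryo of the germinating seed, set against the embryo at 22 DAP, again had a lower TUBA signal, 1 of 4 beside 6.98% of retained probesets called lower. Signals were 814, 2932 and 1836 in the germinating seed embryo and 3562, 7453 and 6333 at 22 DAP, with no overlap (-1.74 ± 0.46, 3.34-fold lower, adjusted p = 0.00478, limma). Without germinating seed embryo replicate 1, the lowest array, the difference was -1.24 (adjusted p = 0.0699), and with these 2 tissues alone the adjusted p was 0.0602, in a range of 0.00147 to 0.113 over 21 alternatives. The beta tubulins lay between -0.23 and 0.35, and none was called. Since the germinating seed embryo was taken to be the mesocotyl of the study, organ and stage cannot be told apart in this comparison.

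Shoot and root were compared at both stages, as leaf minus root in seedlings and coleoptile minus root in germinating seeds. The shoot was thus a different organ at each stage, so organ and stage cannot be told apart here. The seedling root arrays are also among those with the low dap control. For Tubb5 the 2 stages ran in opposite directions, with leaf at -1.03 ± 0.18 from root in seedlings and coleoptile at 0.53 ± 0.18 from root in germinating seeds. The latter (limma adjusted p = 0.0402) was under the minimum of 1 and is no call. The difference between the stages, taken as germinating seed minus seedling, was 1.56 ± 0.26 (limma interaction, adjusted p = 1.49e-05), called as 1 of 4 beside 12.1% of retained probesets called higher. Between the stages the Tubb5 roots overlapped, at 8009, 7639 and 9762 in seedlings and 6720.5, 7414 and 9188 in germinating seeds, while the shoots did not, at 2924, 4934 and 4813 in seedling leaf and 9348, 12544 and 11685 in coleoptile. TUBA had differences of -1.78 ± 0.46 in seedlings and -0.54 ± 0.46 in germinating seeds, and its 1.24 ± 0.65 did not pass (adjusted p = 0.175), though it was called on the scale of the hybridization controls (1.81, adjusted p = 0.0409, in a range of 0.0409 to 0.624 over 26 alternatives). For tubb2 leaf minus root was 0.61 ± 0.14 in seedlings as deposited but -0.19 on the scale of the hybridization controls, coleoptile minus root was -0.04 ± 0.14 in germinating seeds, and the stage difference of -0.65 ± 0.20 (adjusted p = 0.0129), under the minimum of 1, was 0.05 on the scale of the hybridization controls. For tubb1 it was -0.08 (95% interval -0.49 to 0.33) as deposited and 0.62 on the control scale, and was called on neither.

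**Figure D4:**
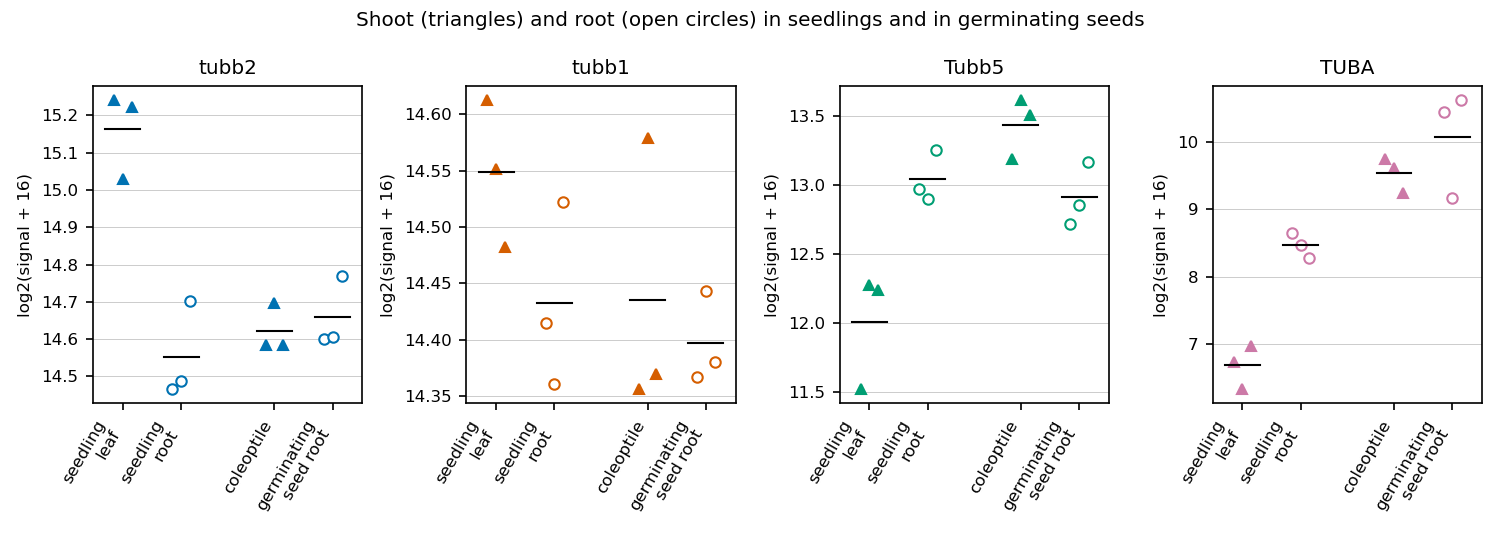
Level of each tubulin probeset, as log2(signal + 16) on its own y axis, in shoot (filled triangles) and root (open circles) of seedlings and of germinating seeds, with 3 replicates per tissue and lines for means. The Tubb5 triangles lie below the circles in seedlings and above them in germinating seeds.

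The 4 probesets did not keep constant differences from each other over the tissues. A shared profile followed with unequal slopes would also give this, and was not tested. Within arrays, the log2 difference between every pair of them depended on the tissue (permutation test of the F statistic, 1e+05 resamples over 39 arrays, p = 1e-05 for each of 6 pairs, the smallest that these resamples can give, and 1e-05 after adjustment over the 6). The differences shifted over the tissues by 1.85 units between tubb2 and tubb1, the least, and by 6.31 between tubb1 and TUBA, the most. Given as a description over 13 tissue means, which share their arrays, Pearson's correlation was 0.86 between tubb2 and tubb1, 0.65 between tubb2 and Tubb5, 0.64 between tubb1 and Tubb5, 0.55 between tubb2 and TUBA, 0.34 between tubb1 and TUBA and 0.70 between Tubb5 and TUBA.

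These correlations leaned on the low value in anthers. When anthers were left out, a choice made after the data were seen, the correlation over 12 tissues was 0.39 between tubb2 and tubb1 and 0.55 between Tubb5 and TUBA. The other 4 pairs then lay between -0.31, for tubb2 and Tubb5, and 0.20, for tubb2 and TUBA. Spearman's rho over the 13 tissues, which gives anthers less weight, was 0.54 between tubb2 and TUBA and 0.52 between Tubb5 and TUBA, and the other 4 pairs had -0.25 to 0.36.

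Among the retained probesets that the annotation pairs with a gene, those nearest in profile to tubb2 were LOC543217 (r = 0.87), tubb1 (0.86) and LOC606340 (0.83), and those nearest to tubb1 were tubb2, cys1 (0.83) and LOC543217 (0.81). Tubb5 came closest to LOC543218 (0.93), LOC542822 (0.91) and LOC606337 (0.91), and TUBA to LOC542865 (0.90), LOC100037593 (0.89) and LOC780660 (0.85). All correlations are over 13 tissue means. All but tubb1, tubb2 and cys1 are named only by gene number in the tables. The single nearest of all retained probesets had no gene in the annotation for any of the 4 (r = 0.97 for tubb2, 0.94 for tubb1, 0.97 for Tubb5 and 0.96 for TUBA). By Pearson's r, the tubb2 and tubb1 probesets thus ranked each other among their nearest named neighbours, while no other tubulin stood in the lists of Tubb5 and TUBA. The 6 tubulin probesets that were not retained could not enter these lists. Among all retained probesets tubb1 was rank 18 for tubb2, and tubb2 rank 30 for tubb1. Spearman's rho of the named neighbours was lower for tubb1 (0.03 to 0.37) and tubb2 (0.36 to 0.62) than for Tubb5 (0.69 to 0.87) and TUBA (0.75 to 0.84). It was 0.36 between tubb2 and tubb1.

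Of the 6 further tubulin probesets, 3 belong to Tubb5 and followed the retained one closely over the 13 tissues, with r of 0.997, 0.935 and 0.936. All 3 were lowest in anthers, and with the retained Tubb5 probeset they share a gene and perhaps probes, so they are no independent measure. Those of uncertain orientation were called lower in 22 DAP embryo than in caryopsis (-1.03 and -1.09, beside 10.3% of all probesets). They were also called lower in 22 DAP endosperm than in 22 DAP embryo (-1.15 and -1.02, beside 15.7%). The retained one had an uncalled -0.33 and -0.76 there. In leaf minus coleoptile they missed the minimum of 1 (-0.94 and -0.97), where it was called. The remaining Tubb5 probeset was called as the retained one in all of these. The tubb3 probeset, of a suffix that marks hits on several genes, was also lowest in anthers, with signals of 5289, 5583 and 5420.4 in anthers, against 15239, 16752 and 18118 in inflorescence (-1.61 ± 0.11, limma). Its means in both roots (14.38 in each), coleoptile (14.35) and leaf (14.33) were close together at the top as deposited. In a fit over all probesets except controls and reporters, 4 of these 6 were called lower in anthers than in inflorescence, beside 19.5% of all probesets.

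Tubb4 did not have its lowest signal in anthers. Its anther arrays gave 6593, 6779 and 6158, against 5199, 5519.7 and 6205 in inflorescence (0.21 ± 0.15, adjusted p = 0.272, limma), with overlap, and the difference was -0.08 when scaled to equal medians and -0.57 when scaled to the hybridization controls. Anthers ranked 5 of 13 tissues as deposited, 8 and 9 under these scalings, where the retained beta tubulins had them at 13. Tubb4 was highest in seedling root (10681, 12191 and 15386) and germinating seed root (10415, 12277 and 12549) and lowest in pistil (2765, 2367 and 2641), except that on the control scale endosperm was lowest. The caryopsis was 1.48 ± 0.15 above the pistil, and was called higher, as it was for tubb1. Its suffix marks probes that may bind other genes too, so the signal is not certain to be that of Tubb4 alone.

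The other TUBA probeset, paired with the same gene number, did not show the wide range of the retained one. It gave 40979, 43010 and 43216 in 22 DAP endosperm, its highest tissue, and 18313, 16088 and 20660 in bracts, its lowest, a span of 1.21 units. In anthers it gave 21555, 20841 and 20334, against 24315, 24703 and 28512 in inflorescence, a difference of -0.30 ± 0.13 (adjusted p = 0.0505, limma) where the retained probeset fell by 4.39. In seedling leaf it was 0.14 ± 0.13 from coleoptile as deposited and -0.78 on the control scale, where the retained probeset had -2.85. The correlation of both over the 13 tissue means was 0.47. Scaled to the hybridization controls, the other probeset was lowest in anthers (-1.08 from inflorescence) and highest in coleoptile, with endosperm at rank 12, so its order rests on the scaling, while its span was then 1.23. Which of them follows the gene, and whether each binds a different copy, was not tested, so the TUBA results above hold for 1 probeset.

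**Figure D5:**
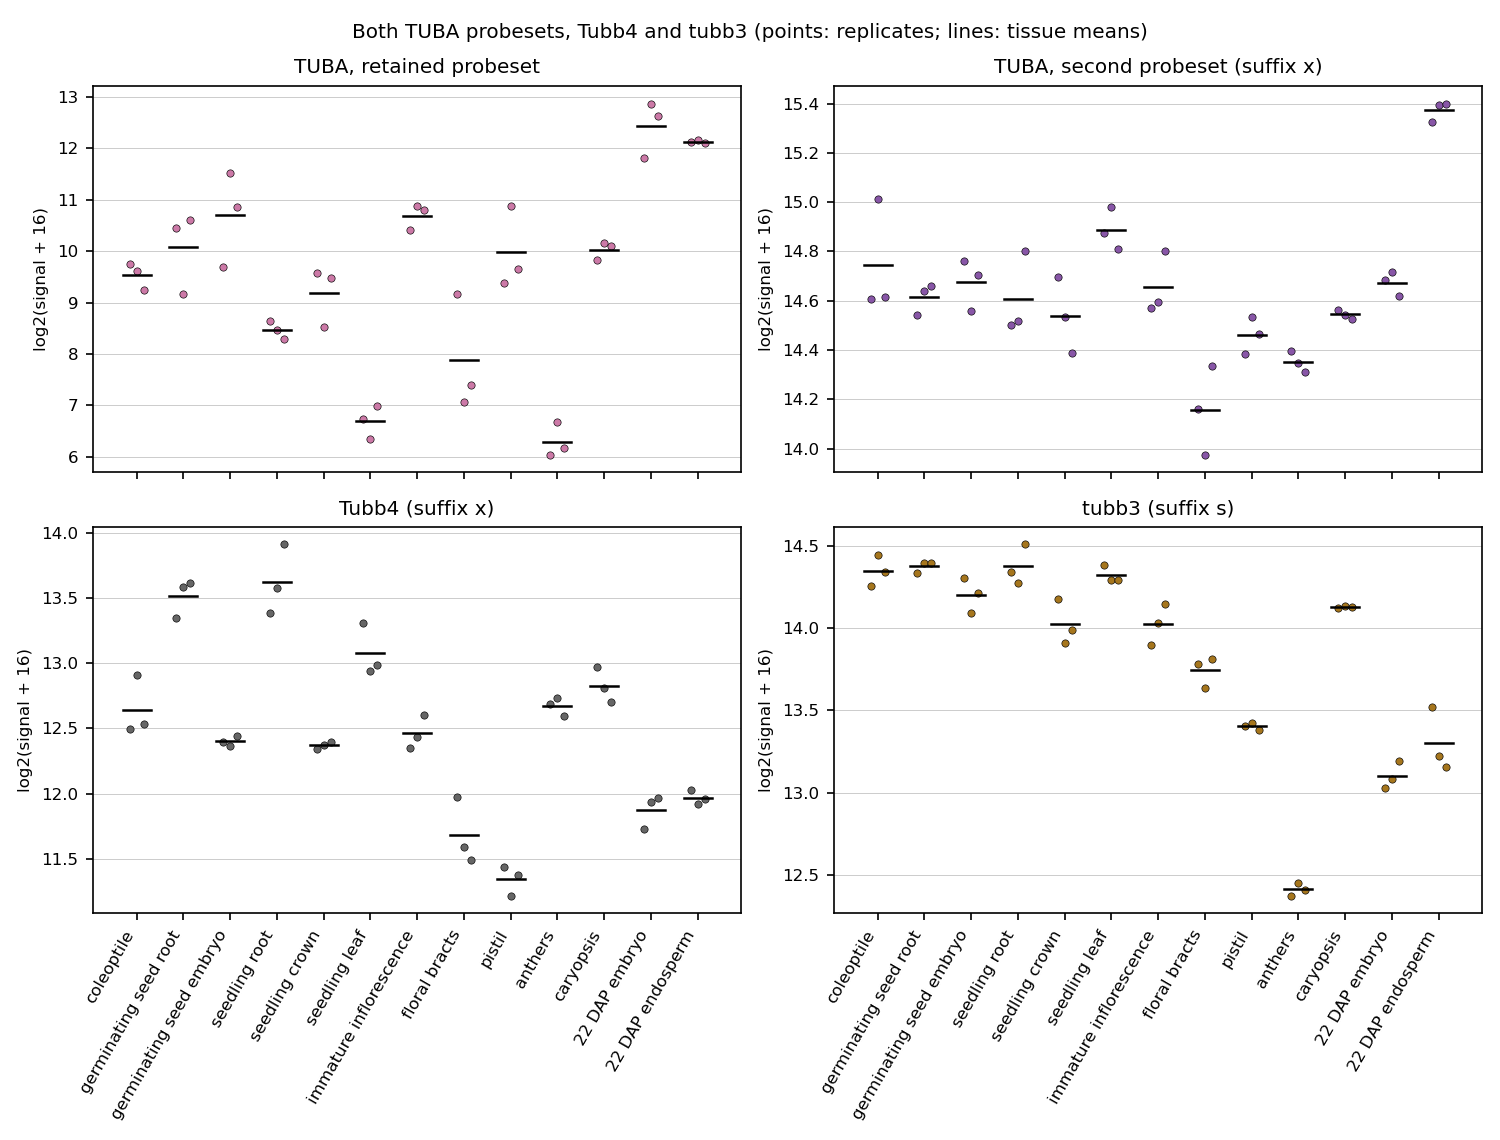
Level, as log2(signal + 16) on its own y axis, of both TUBA probesets, of Tubb4 and of tubb3 on the 39 arrays over the 13 tissues (points: replicates, lines: tissue means). The retained TUBA probeset spans 6.14 units and the other 1.21, and Tubb4 has its highest means in both roots.

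Genes of microtubule-associated proteins, other cytoskeleton genes and cell-cycle genes could hardly be set beside the tubulins, because the tables name few genes by function. Searches found 0 probesets for microtubule-associated genes, 0 for tubulin by that word and 0 for cell division, 2 for the actin cytoskeleton, neither retained, and 1 for cell wall growth, XTH, a xyloglucan endotransglucosylase of growing walls. Histone genes, which are transcribed mainly while DNA is replicated, were measured by 6 retained probesets from 3 genes, H2A-3, H2A-9 and wcH2B-8. All 6 were called lower in anthers than in inflorescence (median -5.69, for example 8.07 in anthers and 14.11 in inflorescence for H2A-3), where all 4 tubulins were called lower (median -3.37), beside 15.3% of retained probesets. XTH was called lower as well, at 7.31 in anthers and 10.54 in inflorescence.

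In the other comparisons the histones and the tubulins ran together only in part. All 6 histone probesets were called lower in bracts than in inflorescence (median -7.04, beside 11.2% of retained probesets) and in leaf than in coleoptile (-3.13, beside 10.9%) or crown (-3.33, beside 11.3%), where Tubb5 and TUBA were called lower and tubb2 and tubb1 were not. All 6 were called lower in 22 DAP endosperm than in caryopsis (median -3.65, beside 9.56%), where Tubb5 was lower and TUBA higher. From pistil to caryopsis 5 of 6 were called higher (median 3.44, beside 6.89%), as was tubb1. In the germinating seed embryo 5 of 6 were called higher than at 22 DAP (median 1.37, beside 8.3% of retained probesets called higher), where TUBA was called lower. All 6 were called lower in 22 DAP endosperm than in 22 DAP embryo (median -2.74, beside 28.8% called in either direction), where 0 tubulins were called. In 22 DAP embryo 3 of 6 were called lower than in caryopsis (median -1.03, beside 10.3% of all probesets except controls and reporters), where TUBA was higher. Between the roots 0 of 6 were called, where few probesets were called at all. Of all probesets except controls and reporters, 5.16% were called higher there and 3.14% lower. This count therefore says little beside the fragile call of TUBA as lower. In the stage difference of shoot over root all 6 were called higher (median 3.38, beside 12.1%), as was Tubb5. Histone and tubulin levels were not set against each other in any test.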

How the data were processed

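The deposited intensities, 1 per probeset and array, were made by the authors with MAS5 (version not given in the sources used here), on a linear scale, scaled to a common trimmed mean. The RMA values of the study, detection calls and barley arrays were not used here. Tissues came from the labels. Signals were used as log2(signal + 16) with no further scaling. Probesets ending in _s_at, _x_at or _a_at, those marked .A1, 111 controls and 64 reporters were left out. The study also dropped a large group of probesets whose position near the 3' end of a gene is uncertain. It found their signals lower and less reliable on average. That group was kept here, so every share of retained probesets counts its members too. How far they lower or raise these shares was not tested. The offset of 16 damps changes of dim probesets. One mean per tissue was fitted to 39 arrays in limma 3.58.1 (R 4.3.3), and p-values were adjusted by Benjamini-Hochberg over 39564 probesets. Permutations, tables and figures used Python 3.11.15, numpy 2.4.6, pandas 2.3.3 and matplotlib 3.10.9. The code was tested on simulated data. The number of arrays, 3 per tissue, limits the precision. The members, lists, comparisons and rules for named genes were chosen with earlier results of these data known. Named were the members, their 3 most similar probesets with a gene, and list members. Of 1273 probesets paired with a gene, 1272 matched the RefSeq table of the assembly IWGSC CS RefSeq v2.1. The deposited files name no genome build, so no coordinates are given. Alternatives were other scalings (medians, hybridization controls, quantiles), offsets of 1 and 64, filters, the trend and robust options, a replicate block, other thresholds, fewer tissues and leaving out arrays. Replicate numbers did not pair the samples.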

Additional observations from a re-analysis of the deposited data

Results flagged for a closer look

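Tubb5 and tubb2 had a difference between shoot and root that was not the same at the 2 stages, by a limma interaction adjusted over all retained probesets. For Tubb5 the stage difference, germinating seed minus seedling, was 1.56 (adjusted p = 1.49e-05), with every leaf array below every root array in seedlings. For tubb2 it was -0.65 (adjusted p = 0.0129), with every leaf array above every root array in seedlings as deposited, though leaf minus root was -0.19 with overlapping arrays on the scale of the hybridization controls, and with overlapping arrays in germinating seeds. The Tubb5 value stayed between 1.39 and 2.25 under the 3 other scalings, and that of tubb2 lay between -0.46 and 0.05 under them and did not pass the test. Leaving out any 1 of the 12 arrays kept Tubb5 between 1.31 and 1.69 and tubb2 between -0.72 and -0.59. The shoot was leaf in seedlings and coleoptile in germinating seeds, so organ and stage cannot be told apart.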

How the results depend on the processing

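The F tests of the 4 tubulins passed under every alternative run. Scaling to the hybridization controls put the median of all retained probesets in endosperm minus caryopsis at -0.45, against 0.28 as deposited. On that scale the call of TUBA there was lost (0.79), tubb1 in endosperm minus caryopsis was reversed to a called -1.16, endosperm minus 22 DAP embryo had 2 tubulins called in place of 0, and the stage difference of shoot over root had 2 in place of 1. With equal medians, caryopsis minus pistil had 2 called in place of 1 and endosperm minus 22 DAP embryo 1 in place of 0. Without a minimum difference these 2 comparisons had 2 and 3 called, the stage difference 2, and leaf minus coleoptile, leaf minus crown and endosperm minus caryopsis 3 each in place of 2. The shares of all retained probesets called under these alternatives were not counted. In fits of only the tissues compared, 0 were called for seedling root minus germinating seed root and 0 for germinating seed embryo minus 22 DAP embryo, in place of 1 each. Leaving out single arrays or 1 replicate number gave 0 to 1 called for both of these comparisons and left the other counts the same. With a replicate block, TUBA in the roots had an adjusted p of 0.0261 (range over its alternatives 0.00601 to 0.407), and anthers minus inflorescence kept 4 calls. The block changed no call. The numbers did not pair the samples, since correlations of same-numbered deviations lay between -0.03 and 0.10 and 14 of 39 arrays were closest to their own number. The causes were not tested. The correlations and spans without anthers, the tissue orders and shoot-root differences by scaling and the scaling of Tubb4, tubb3 and the other TUBA probeset were chosen after seeing the data. Limits are 3 arrays per tissue, near copies that may share probes, TUBA levels near the middle of the array in leaf and anthers, and bright beta tubulin signals, of which tubb2 reached 79.7% of the brightest signal on an array.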
